A study of Homo sapiens with 30 samples.

Results

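Messenger RNA of 34 genes of ribosome collision sensing and ribosome-associated quality control was followed in HEK293 cells, a widely used cell line of human embryonic kidney origin, that carried a mistranslation reporter with or without an engineered tRNA. The genes were taken as a fixed list of symbols, which was chosen with earlier results of these data known. All 34 were found among the 58278 genes of the count tables, and all 34 passed the filter on low counts. They are described by role: 8 ligases and sensors, 5 deubiquitinases and partners, 4 subunits of the ASC-1 complex, 4 factors that repress initiation, 6 factors that split or rescue ribosomes or cleave the mRNA, and 7 factors of 60S quality control.

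The study used 30 libraries in 10 groups of 3. In 5 groups, wild-type HEK293 cells were transfected with an EGFP(mutant)-mCherry reporter together with its missense-correcting tRNA (mc-tRNA), a tRNA charged with another amino acid than its anticodon stands for: EGFP(R96C)+Arg-tRNA_Cys(GCA), EGFP(R96W)+Arg-tRNA_Trp(CCA), EGFP(R65)+Ser-tRNA_Arg(CCG), EGFP(R96H)+Arg-tRNA_His(GUG) and EGFP(R96Q)+Arg-tRNA_Gln(CUG). The other 5 groups received the matching reporter alone: EGFP(R96C), EGFP(R96W), EGFP(R65), EGFP(R96H) and EGFP(R96Q). Every group, those with the reporter alone included, was thus a transfected and mCherry-sorted population, collected 48 h after a transient transfection, and no untransfected cells were analysed here. Per the labels the replicates were independent. The reporters and mc-tRNAs themselves were not analysed here.

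When a ribosome stalls and the next one runs into it, the ligase ZNF598 marks proteins of the small (40S) subunit with ubiquitin, and the ASC-1 complex, through its helicase ASCC3, pulls the leading ribosome apart. EDF1 binds the collided pair and brings in GIGYF2 and EIF4E2, which block new initiation on the same mRNA, while PELO and HBS1L release ribosomes that have no codon to read. The large (60S) subunit left with an unfinished chain is handled by NEMF and the ligase LTN1, and prolonged collisions also signal through the kinase MAP3K20 and through GCN1 to the stress kinase GCN2.

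Gene totals ran from 39017548 to 55446962 counts per library. Values below are CPM, counts divided by the library total and set to a common scale, with totals corrected by TMM, a method that assumes most genes do not change, and changes are log2 ratios of mc-tRNA over reporter alone ± SE from edgeR's quasi-likelihood fit of all 30 libraries. A gene was called, and is said to have risen or fallen, at an adjusted p under 0.05 over 22321 genes. CPM is a share of a library, so fewer cells with a transcript and less of it per cell cannot be told apart. All 5 markers chosen for the line (VIM, CDH2, NEFL, NEFM, PAX2) were above 1 CPM in every library. The 3 keratinocyte markers (KRT5, KRT14, KRT1) summed to at most 0.0927 CPM in any library, the 4 blood markers (PTPRC, CD3E, HBB, CD14) to 0.523 to 12.8 CPM and the 4 stromal markers (COL1A1, COL3A1, DCN, LUM) to 17.9 to 39.9 CPM. Spike-in (ERCC) counts were 0 in the 6 EGFP(R65) libraries and 10 to 106 in the 24 EGFP(R96) libraries, so levels in EGFP(R65) libraries stand beside the others as description only. Where an effect is set against that of Ser-tRNA_Arg(CCG), the mc-tRNA, the reporter and this difference between library sets cannot be told apart.

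Per kilobase of exon, RACK1, a 40S scaffold protein, had the highest level, with a median of 428 CPM per kilobase over the 15 libraries with a reporter alone. EDF1 followed at 82.3, and USP10 at 36.0 and G3BP2 at 35.7 CPM per kilobase had overlapping ranges over these libraries, 32.2 to 38.9 and 31.2 to 39.0. The low end of the order was N4BP2 at 4.81, MAP3K20 at 3.86 and ELAC1 at 0.552 CPM per kilobase. ELAC1 is an enzyme that repairs the ends of tRNAs cut during rescue.

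With Arg-tRNA_Cys(GCA), 22 of the 34 genes rose and 3 fell, while 60.7% of all genes tested were called (30.2% up, 30.5% down). The median log2 change of the 34 was 0.59 beside -0.04 over all genes, and 9 rose at least 2-fold: GTPBP2, N4BP2, PELO, EDF1, KLHDC10, MAP3K20, RCHY1, HBS1L and LTN1. The share of all genes at this 2-fold cut was not counted. Whatever its sign, the median size of a change was 0.59 over the members and 0.58 over all genes. The mc-tRNA and reporter libraries did not overlap for 25 members, beside 61.8% of all genes. The summed stromal markers moved with this comparison, at 38.6 to 39.9 CPM with Arg-tRNA_Cys(GCA) and 20.6 to 23.0 CPM in EGFP(R96C) alone, as did the HEK293 markers, at 475 to 540 and 747 to 779 CPM, and their part in the result was not tested. With Arg-tRNA_Trp(CCA), 19 rose and 2 fell, against 42.5% of all genes called (20.7% up, 21.7% down), and the median was 0.22 beside -0.03. For 21 members the groups did not overlap (47.8% of all genes), and the HEK293 markers summed to 563 to 693 CPM with the mc-tRNA and 775 to 864 CPM in EGFP(R96W) alone, whose part was not tested.

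Ser-tRNA_Arg(CCG) went both ways: 11 members rose and 14 fell where 57.3% of all genes were called (26.6% up, 30.7% down), with a median of -0.05 beside -0.02. The groups did not overlap for 28 members, beside 66.3% of all genes. The median size of a change, whatever its sign, was 0.28 over the members and 0.49 over all genes, and only GTPBP2 fell at least 2-fold. Blood markers summed to 9.97 to 12.8 CPM with Ser-tRNA_Arg(CCG) and 2.27 to 3.05 CPM in EGFP(R65) alone, and stromal markers to 24.5 to 25.8 and 26.2 to 27.7 CPM. At lower levels the blood markers were also higher, with no overlap, in the other comparisons: at 1.65 to 1.68 CPM with Arg-tRNA_Cys(GCA) and 0.858 to 1.55 CPM in EGFP(R96C) alone, and at 1.56 to 2.26 CPM with Arg-tRNA_Trp(CCA) and 0.881 to 1.06 CPM in EGFP(R96W) alone. The sums were 1.51 to 2.01 CPM with Arg-tRNA_Gln(CUG) and 1.02 to 1.42 CPM in EGFP(R96Q) alone, and 0.758 to 0.921 CPM with Arg-tRNA_His(GUG) and 0.523 to 0.676 CPM in EGFP(R96H) alone. The part of these markers in the results was not tested.

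Arg-tRNA_Gln(CUG) and Arg-tRNA_His(GUG) left few calls. With Arg-tRNA_Gln(CUG) no member was called by edgeR, 4 had an unadjusted p under 0.05, DESeq2 called 1 (CNOT4), and 0.551% of all genes were called. EIF4E2, which rose, was the only member called with Arg-tRNA_His(GUG), where 2.51% of all genes were called (1.56% up, 0.95% down) and 7 members had an unadjusted p under 0.05. The share of all genes with an unadjusted p under 0.05 was not counted in either comparison. For 14 members the His(GUG) groups did not overlap, beside 27% of all genes, and for 4 the Gln(CUG) groups did not, beside 16.2%. The largest member change in either comparison was -0.37 ± 0.16 for ELAC1 with Arg-tRNA_His(GUG), which was not called (adjusted p = 0.244).

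**Figure D1:**
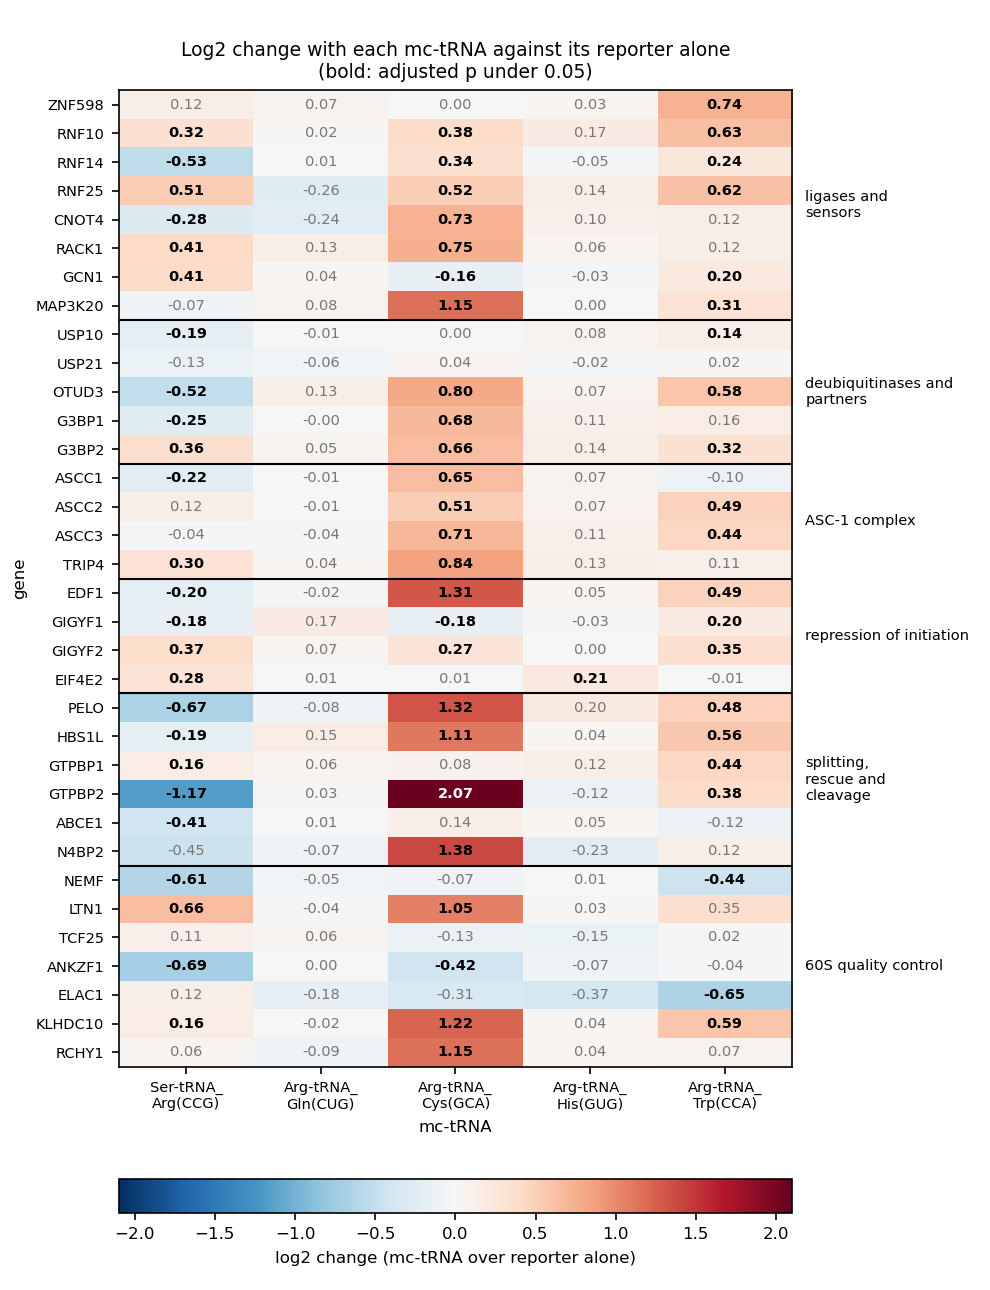
Log2 change of each of the 34 genes (rows, by role) with each mc-tRNA over its reporter alone (columns), 3 libraries against 3. Bold values have an adjusted p under 0.05. The Cys(GCA) column is the reddest, with GTPBP2 at 2.07, and the Gln(CUG) column holds no bold value.

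How far these directions hold depends on the scaling. With library totals in place of TMM the median of all genes moved by -0.55 in the Cys(GCA) comparison and by -0.13 in the Trp(CCA) comparison. Counted that way, the members split into 13 called higher and 15 called lower with Arg-tRNA_Cys(GCA), with 20.2% instead of 49.8% of all calls upward, and 15 called higher and 5 called lower with Arg-tRNA_Trp(CCA), with 31.4% instead of 48.8% upward. Over all genes the share of upward calls also moved to 38.3% instead of 49.6% with Arg-tRNA_Gln(CUG), and to 48.4% instead of 62.1% with Arg-tRNA_His(GUG). In the Cys(GCA) comparison the medians were then 0.04 over the members and -0.59 over all genes; such a scaling shifts all genes of a comparison nearly alike. With Arg-tRNA_Trp(CCA), library totals ended the calls of RNF14, GCN1, USP10 and GIGYF1 as higher, and ABCE1, ASCC1 and EIF4E2 were called lower. Directions given below for the Cys(GCA) comparison are relative to TMM, and RNF10, RNF14, RNF25, ASCC2 and GIGYF2 turned sign with library totals. Another 9 members, not called with TMM, were then called lower: ZNF598, USP10, USP21, EIF4E2, GTPBP1, ABCE1, NEMF, TCF25 and ELAC1. By role, library totals gave 4 splitting and rescue factors called higher and 2 lower, 3 and 4 ligases and sensors, 3 and 4 factors of 60S quality control, 1 and 3 factors that repress initiation, 1 and 2 deubiquitinases and partners, and 1 and 0 ASC-1 subunits.

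**Figure D2:**
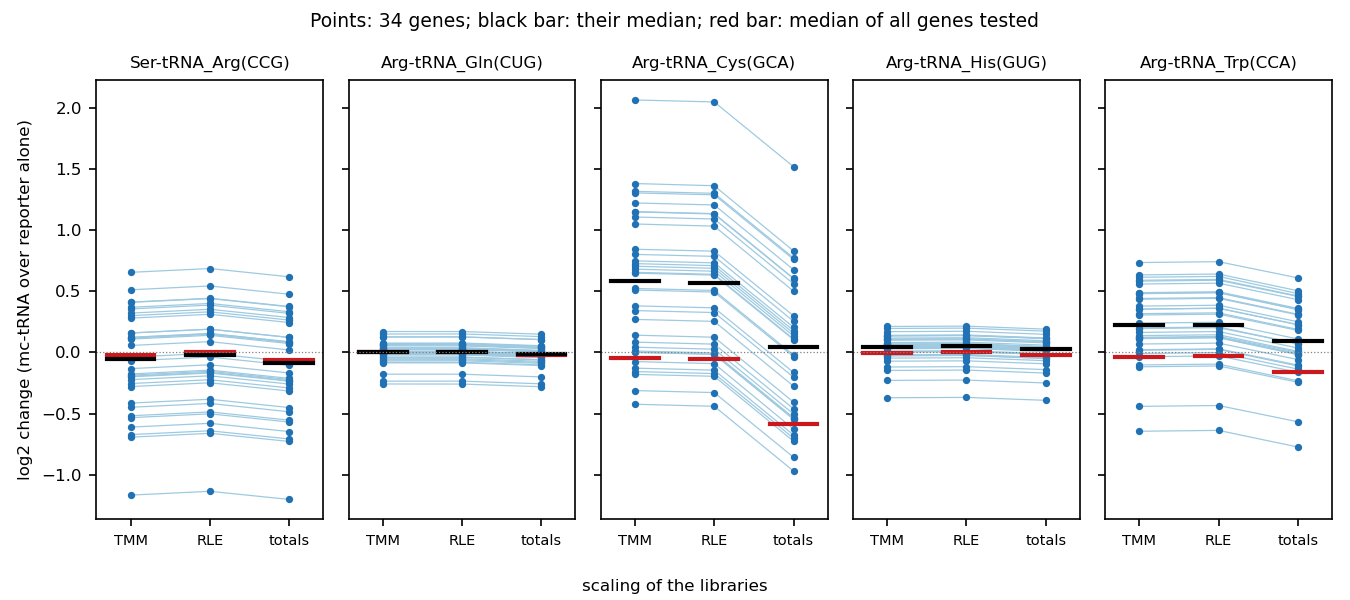
Log2 change of the 34 genes (points, joined by gene) in the 5 comparisons with TMM, RLE and library-total scaling. Black bars are their medians and red bars the medians of all genes tested. In the Cys(GCA) panel both bars drop with library totals, to 0.04 and -0.59.

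Among the factors that split and rescue ribosomes, 4 of 6 rose with Arg-tRNA_Cys(GCA), 4 of 6 rose with Arg-tRNA_Trp(CCA), and 1 rose while 4 fell with Ser-tRNA_Arg(CCG). GTPBP2, a GTPase of this group (chr6:43605316-43629162, minus strand, GRCh38, protein coding), had the widest range of all members. Its upstream sequence is shown with those of PELO, EDF1, OTUD3 and HBS1L, the 5 genes with the widest spread of effects among those called in opposite directions with different mc-tRNAs. The 250 bases before a RefSeq start (build GRCh38.p14), each 5′ to 3′ on the gene's strand, lie at chr6:43629265-43629514 (minus strand) for GTPBP2, chr5:52787666-52787915 (plus) for PELO, chr9:136866309-136866558 (minus) for EDF1, chr1:19882145-19882394 (plus) for OTUD3 and chr6:135054823-135055072 (minus) for HBS1L. Capitals in OTUD3 mark a minus-strand match to TGATGNAA, the element bound by ATF4 with a C/EBP partner, which none of the other sequences holds.
GTPBP2: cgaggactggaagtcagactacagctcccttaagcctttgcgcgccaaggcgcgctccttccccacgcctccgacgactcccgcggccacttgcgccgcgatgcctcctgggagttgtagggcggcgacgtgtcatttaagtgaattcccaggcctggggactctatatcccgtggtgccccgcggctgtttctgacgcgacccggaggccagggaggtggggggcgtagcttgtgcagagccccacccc
PELO: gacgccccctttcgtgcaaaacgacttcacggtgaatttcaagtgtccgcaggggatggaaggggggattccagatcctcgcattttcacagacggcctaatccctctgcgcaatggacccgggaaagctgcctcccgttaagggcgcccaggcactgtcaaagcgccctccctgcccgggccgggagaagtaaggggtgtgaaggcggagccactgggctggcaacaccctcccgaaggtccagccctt
EDF1: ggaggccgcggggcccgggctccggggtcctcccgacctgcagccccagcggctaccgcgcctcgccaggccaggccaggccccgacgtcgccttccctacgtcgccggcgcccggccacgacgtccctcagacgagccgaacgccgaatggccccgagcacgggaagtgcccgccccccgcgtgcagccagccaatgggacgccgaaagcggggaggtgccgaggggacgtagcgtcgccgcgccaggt
OTUD3: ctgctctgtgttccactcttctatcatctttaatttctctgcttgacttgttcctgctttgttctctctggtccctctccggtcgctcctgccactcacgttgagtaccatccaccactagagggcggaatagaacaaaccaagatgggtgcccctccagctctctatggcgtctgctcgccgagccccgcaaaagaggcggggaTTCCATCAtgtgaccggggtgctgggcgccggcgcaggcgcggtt
HBS1L: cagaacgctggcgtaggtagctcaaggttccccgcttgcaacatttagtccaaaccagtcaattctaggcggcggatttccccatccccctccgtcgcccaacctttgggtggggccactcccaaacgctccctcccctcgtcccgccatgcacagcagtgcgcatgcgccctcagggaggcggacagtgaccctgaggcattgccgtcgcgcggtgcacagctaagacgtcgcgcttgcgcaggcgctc

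The motif search covered 300-base windows (250 before to 50 after a start) on both strands. Of the 34 genes 30 had a window in the RefSeq table, 42 windows in all of 35116. TGATGNAA was in 3.62% of all windows and in those of G3BP2 and OTUD3. TGACGTCA, the full cAMP response element, was in 1.85% and in windows of ABCE1 and G3BP2, and the heat shock element was in 0.49% of all windows and in none of these genes'. The ER stress response element was in 0.0769% of all windows and again in none of the genes'. A match here is only a run of letters in the window.

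GTPBP2 was highest with Arg-tRNA_Cys(GCA) and lowest with Ser-tRNA_Arg(CCG) of all groups. It stood at 272, 254 and 264 CPM with Arg-tRNA_Cys(GCA) and at 64.9, 61.2 and 62.4 CPM in EGFP(R96C) alone, a rise of 2.07 ± 0.07 (adjusted p = 7.09e-24). With Ser-tRNA_Arg(CCG) it had 47.0, 47.6 and 59.5 CPM, against 114, 109 and 123 CPM in EGFP(R65) alone, a change of -1.17 ± 0.07 (adjusted p = 3.87e-16). With Arg-tRNA_Trp(CCA) it had 106, 98.4 and 90.7 CPM and in EGFP(R96W) alone 72.7, 73.1 and 81.0 CPM, a rise of 0.38 ± 0.07 (adjusted p = 2.67e-05). All 3 pairs of groups were apart with no overlap, in a downward direction only for Ser-tRNA_Arg(CCG). In the other 2 comparisons the gene kept within 65.8 and 76.0 CPM and was not called.

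PELO (chr5:52787940-52804046, plus strand), which recognises ribosomes with an empty A site, likewise rose most with Arg-tRNA_Cys(GCA) and fell with Ser-tRNA_Arg(CCG). It reached 105, 102 and 106 CPM with Arg-tRNA_Cys(GCA) and 42.7, 44.5 and 38.4 CPM in EGFP(R96C) alone (1.32 ± 0.07, adjusted p = 1.07e-17). It fell to 23.2, 24.6 and 28.7 CPM with Ser-tRNA_Arg(CCG), against 41.1, 40.4 and 40.5 CPM in EGFP(R65) alone (-0.67 ± 0.07, adjusted p = 1.46e-09). With Arg-tRNA_Trp(CCA) the libraries had 54.9, 56.7 and 45.4 CPM, and with EGFP(R96W) alone 37.6, 37.3 and 37.5 CPM (0.48 ± 0.07, adjusted p = 1.7e-06). No library overlapped between groups in these comparisons, and 10.92% of the exon bases of PELO lie in ITGA1 on the same strand.

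HBS1L, the GTPase that carries PELO, had 389, 416 and 373 CPM with Arg-tRNA_Cys(GCA) and 182, 182 and 183 CPM in EGFP(R96C) alone (1.11 ± 0.05, adjusted p = 1.87e-19). It had 304, 305 and 293 CPM with Ser-tRNA_Arg(CCG) and 334, 350 and 349 CPM in EGFP(R65) alone, a small fall of -0.19 ± 0.05 (adjusted p = 0.00192). In cells with Arg-tRNA_Trp(CCA) it had 329, 322 and 303 CPM and in EGFP(R96W) alone 213, 222 and 212 CPM (0.56 ± 0.05, adjusted p = 1.1e-10). PELO and HBS1L thus moved the same way in each of these comparisons.

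N4BP2, a large protein related to endonucleases that cut stalled mRNAs in yeast and worms, was uneven between libraries. It had 65.9, 74.0 and 35.3 CPM with Arg-tRNA_Cys(GCA) and 23.4, 18.9 and 24.9 CPM in EGFP(R96C) alone, a rise of 1.38 ± 0.23 (adjusted p = 1.73e-05). The third library with the mc-tRNA was low for its group, though above every library of the reporter alone, and without it the rise was 1.60. The remaining members of the group changed less. GTPBP1, the sister GTPase of GTPBP2, was not called with Arg-tRNA_Cys(GCA) (0.08 ± 0.05, adjusted p = 0.187) and rose with Arg-tRNA_Trp(CCA) (0.44 ± 0.05, adjusted p = 3.99e-08) and Ser-tRNA_Arg(CCG) (0.16 ± 0.05, adjusted p = 0.013). The last of these calls was lost without the third EGFP(R65) library (adjusted p = 0.0721). ABCE1, the ATPase that splits ribosomes after release, fell with Ser-tRNA_Arg(CCG) (-0.41 ± 0.07, adjusted p = 1.7e-06) and with TMM was called with no other mc-tRNA (library totals gave -0.41 with Arg-tRNA_Cys(GCA) and -0.24 with Arg-tRNA_Trp(CCA), both called). Its Cys(GCA) change with TMM was 0.14 (adjusted p = 0.0656), and without the first EGFP(R96C) library or the third one with the mc-tRNA it was called higher (adjusted p = 0.0395 and 0.046).

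**Figure D3:**
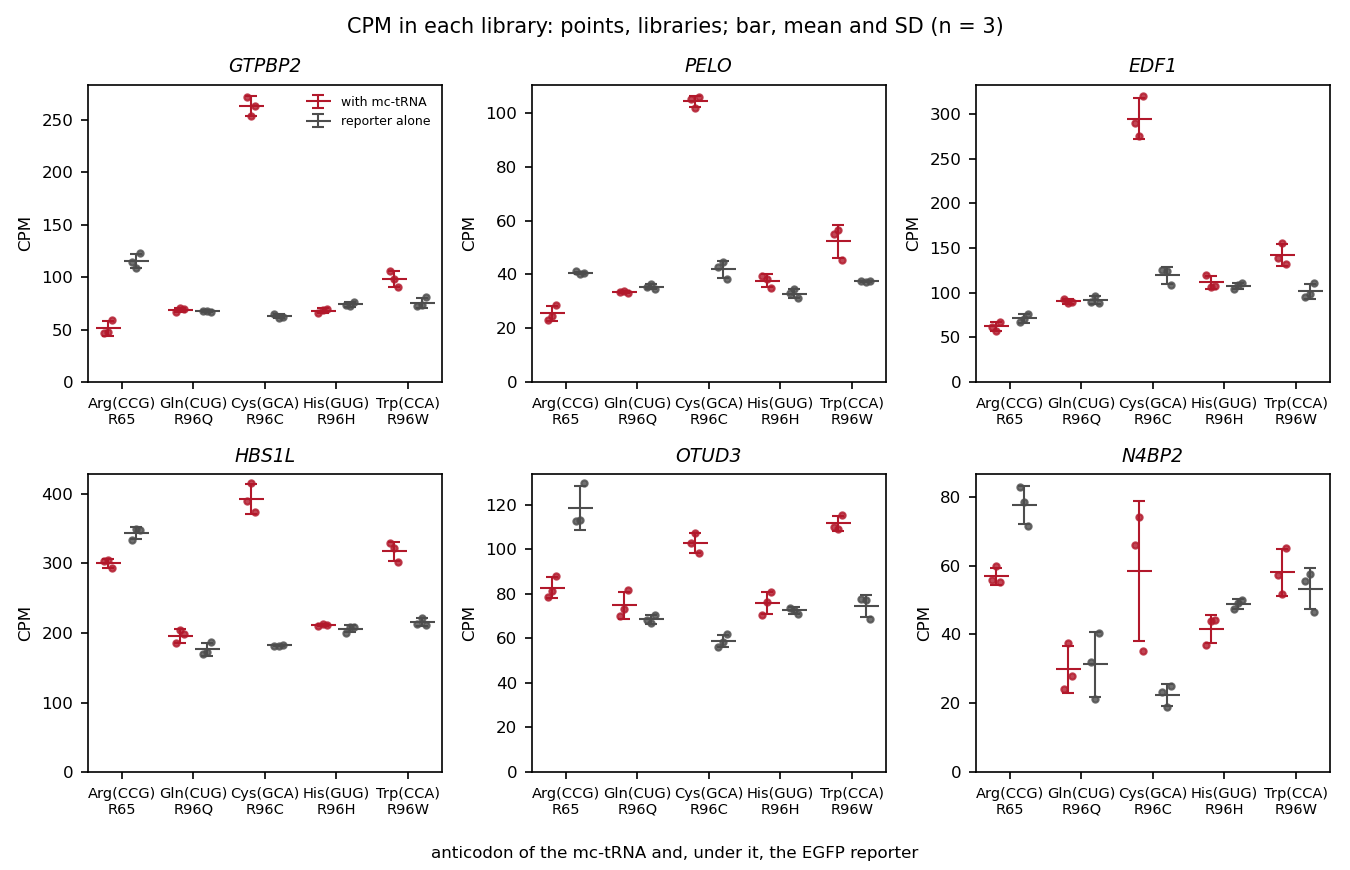
CPM of 6 genes in every library: mc-tRNA groups in red, left, and the matching reporter alone in grey, right (points, libraries; bars, mean and SD, n = 3). GTPBP2, PELO, EDF1 and HBS1L are highest in the 3 libraries with Arg-tRNA_Cys(GCA), and the 3 points of N4BP2 there spread from 35.3 to 74.0 CPM.

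Of the 4 factors that repress initiation, 2 rose and 1 fell with Arg-tRNA_Cys(GCA), 3 rose with Arg-tRNA_Trp(CCA), 1 rose with Arg-tRNA_His(GUG), and 2 rose and 2 fell with Ser-tRNA_Arg(CCG). EDF1 (chr9:136862119-136866286, minus strand) changed most. It had 290, 275 and 320 CPM with Arg-tRNA_Cys(GCA), against 125, 124 and 109 CPM in EGFP(R96C) alone (1.31 ± 0.07, adjusted p = 2.06e-17). With Arg-tRNA_Trp(CCA) it had 138.5, 155.99 and 132.7 CPM and in EGFP(R96W) alone 94.9, 98.8 and 111 CPM (0.49 ± 0.07, adjusted p = 1.42e-06). With Ser-tRNA_Arg(CCG) it had 61.4, 57.6 and 67.4 CPM and 66.7, 71.1 and 76.3 CPM in EGFP(R65) alone, a fall of -0.20 ± 0.07 (adjusted p = 0.0221) in groups that overlapped. That call was lost when any 1 of 3 libraries was left out, with an adjusted p of 0.0602 to 0.137. It was also lost on all libraries with RLE factors (adjusted p = 0.0543) and with DESeq2 (adjusted p = 0.0729).

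GIGYF2 rose with Ser-tRNA_Arg(CCG), Arg-tRNA_Cys(GCA) and Arg-tRNA_Trp(CCA). Its libraries had 241, 232 and 225 CPM with Ser-tRNA_Arg(CCG) and 183, 180 and 177 CPM in EGFP(R65) alone (0.37 ± 0.05, adjusted p = 2.22e-07). With Arg-tRNA_Cys(GCA) it had 173, 185 and 169 CPM, and in EGFP(R96C) alone 144.4, 149.3 and 142.4 CPM (0.27 ± 0.05, adjusted p = 3.42e-05), a change that turned to -0.28 with library totals. In cells with Arg-tRNA_Trp(CCA) it had 191, 185 and 172 CPM and in EGFP(R96W) alone 143.02, 146.4 and 138.9 CPM (0.35 ± 0.05, adjusted p = 1.17e-06). The groups were apart in all 3 comparisons, by far less than the CPM gaps seen for EDF1 with Arg-tRNA_Cys(GCA).

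GIGYF1, its paralog, differed by much less. It fell with Arg-tRNA_Cys(GCA), at 62.3, 54.8 and 62.3 CPM against 63.2, 66.0 and 73.9 CPM in EGFP(R96C) alone (-0.18 ± 0.07, adjusted p = 0.0297). It also fell with Ser-tRNA_Arg(CCG) (-0.18 ± 0.07, adjusted p = 0.0307) and rose with Arg-tRNA_Trp(CCA) (0.20 ± 0.07, adjusted p = 0.0247). Each of these 3 calls was lost when single libraries were left out, with adjusted p-values of 0.0924 to 0.212 in the Cys(GCA), 0.0541 to 0.0954 in the Arg(CCG) and 0.102 to 0.108 in the Trp(CCA) comparison. The Arg(CCG) call was also lost with RLE factors (adjusted p = 0.0783) and with DESeq2 (adjusted p = 0.0979). EIF4E2, the cap-binding partner of GIGYF2, had 71.6, 74.0 and 70.4 CPM with Arg-tRNA_His(GUG) and 62.9, 63.9 and 59.7 CPM in EGFP(R96H) alone (0.21 ± 0.06, adjusted p = 0.0353). The call was lost when any of 5 of the 6 libraries was left out (adjusted p = 0.0687 to 0.246), and 24.17% of its exon bases overlap genes on the opposite strand. EIF4E2 also rose with Ser-tRNA_Arg(CCG) (0.28 ± 0.06, adjusted p = 8.05e-05).

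Of the 8 ligases and sensors, 6 rose and 1 fell with Arg-tRNA_Cys(GCA), 6 rose with Arg-tRNA_Trp(CCA), and 4 rose and 2 fell with Ser-tRNA_Arg(CCG). ZNF598 (chr16:1997654-2009823, minus strand), the ligase that starts the collision response, was called with 1 mc-tRNA. It had 107, 110 and 113 CPM with Arg-tRNA_Trp(CCA) and 63.1, 65.9 and 69.3 CPM in EGFP(R96W) alone (0.74 ± 0.08, adjusted p = 7.41e-10). With Arg-tRNA_Cys(GCA) it had 83.2, 77.8 and 86.6 CPM, inside the range of 69.1, 81.7 and 96.4 CPM in EGFP(R96C) alone (0.00 ± 0.08, adjusted p = 0.998; -0.55 with library totals). The Trp(CCA) effect exceeded the Cys(GCA) effect by 0.73 ± 0.11 (adjusted p = 5.58e-07), and it exceeded the Arg(CCG), Gln(CUG) and His(GUG) effects by 0.62, 0.66 and 0.70 (adjusted p = 1.07e-05, 1.3e-05 and 5.93e-06).

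RNF10, which ubiquitinates RPS2 and RPS3, rose with 3 mc-tRNAs. It had 295, 292 and 284 CPM with Ser-tRNA_Arg(CCG) and 235, 234 and 228 CPM in EGFP(R65) alone (0.32 ± 0.06, adjusted p = 1.4e-05). It had 281, 274 and 273 CPM with Arg-tRNA_Cys(GCA) and 216, 219 and 201 CPM in EGFP(R96C) alone (0.38 ± 0.06, adjusted p = 6.67e-07; -0.16 with library totals). With Arg-tRNA_Trp(CCA) it had 277, 275 and 235 CPM, against 171, 169 and 168 CPM in EGFP(R96W) alone (0.63 ± 0.06, adjusted p = 6.21e-11). No groups overlapped, and the Trp(CCA) effect was larger than the Cys(GCA) effect by 0.25 ± 0.08 (adjusted p = 0.012).

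RNF25, which marks stalled ribosomes with a factor trapped in the A site, rose with the same 3 mc-tRNAs. It had 104, 106 and 105 CPM with Ser-tRNA_Arg(CCG) and 75.3, 74.3 and 70.8 CPM in EGFP(R65) alone (0.51 ± 0.09, adjusted p = 1.32e-05). It had 75.9, 76.2 and 80.5 CPM with Arg-tRNA_Cys(GCA) and 56.5, 56.4 and 49.1 CPM in EGFP(R96C) alone (0.52 ± 0.09, adjusted p = 9.34e-06; -0.02 with library totals). In cells with Arg-tRNA_Trp(CCA) it had 66.0, 66.8 and 47.3 CPM, and in EGFP(R96W) alone 40.7, 36.6 and 40.2 CPM (0.62 ± 0.09, adjusted p = 2.15e-06). The third library with Arg-tRNA_Trp(CCA) was the lowest of its group for both RNF10 and RNF25 and still above every library of the reporter alone. Exons of RNF25 share 11.19% of their bases with STK36 on the opposite strand, and the counting strand is not given.

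RNF14, the partner ligase of RNF25 in that pathway, fell with Ser-tRNA_Arg(CCG) (-0.53 ± 0.06, adjusted p = 4.05e-09) and rose with Arg-tRNA_Cys(GCA) (0.34 ± 0.06, adjusted p = 1.14e-05; -0.20 with library totals) and Arg-tRNA_Trp(CCA) (0.24 ± 0.06, adjusted p = 0.0019; 0.11 with library totals, adjusted p = 0.112). RACK1 had 3063, 3025 and 3153 CPM with Ser-tRNA_Arg(CCG), against 2212, 2270 and 2465 CPM in EGFP(R65) alone (0.41 ± 0.08, adjusted p = 5.94e-05), and rose by 0.75 ± 0.08 with Arg-tRNA_Cys(GCA) (adjusted p = 8.85e-10). CNOT4, the ligase of the CCR4-NOT complex, rose with Arg-tRNA_Cys(GCA) (0.73 ± 0.06, adjusted p = 4.09e-12) and fell with Ser-tRNA_Arg(CCG) (-0.28 ± 0.06, adjusted p = 0.000327). Of the sensors, MAP3K20 rose with Arg-tRNA_Cys(GCA), to a mean of 90.8 ± 8.05 CPM, against 40.9 ± 2.43 CPM in EGFP(R96C) alone (SD, n = 3 each; 1.15 ± 0.07, adjusted p = 2.97e-16), and less with Arg-tRNA_Trp(CCA) (0.31 ± 0.07, adjusted p = 0.000611). The 2 effects differed by -0.85 ± 0.10, Trp(CCA) minus Cys(GCA) (adjusted p = 1.1e-08).

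GCN1 was called in opposite directions too. With Ser-tRNA_Arg(CCG) it rose by 0.41 ± 0.06 (adjusted p = 1.16e-06). With Arg-tRNA_Cys(GCA) it had 269, 246 and 238 CPM, against 298, 277 and 264 CPM in EGFP(R96C) alone, a fall in overlapping groups (-0.16 ± 0.06, adjusted p = 0.0336). This call was lost without the first EGFP(R96C) library or the third one with the mc-tRNA (adjusted p = 0.0585 to 0.184). Its rise with Arg-tRNA_Trp(CCA) (0.20 ± 0.06, adjusted p = 0.0105) was lost without any 1 of 3 libraries (adjusted p = 0.0538 to 0.0703).

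**Figure D4:**
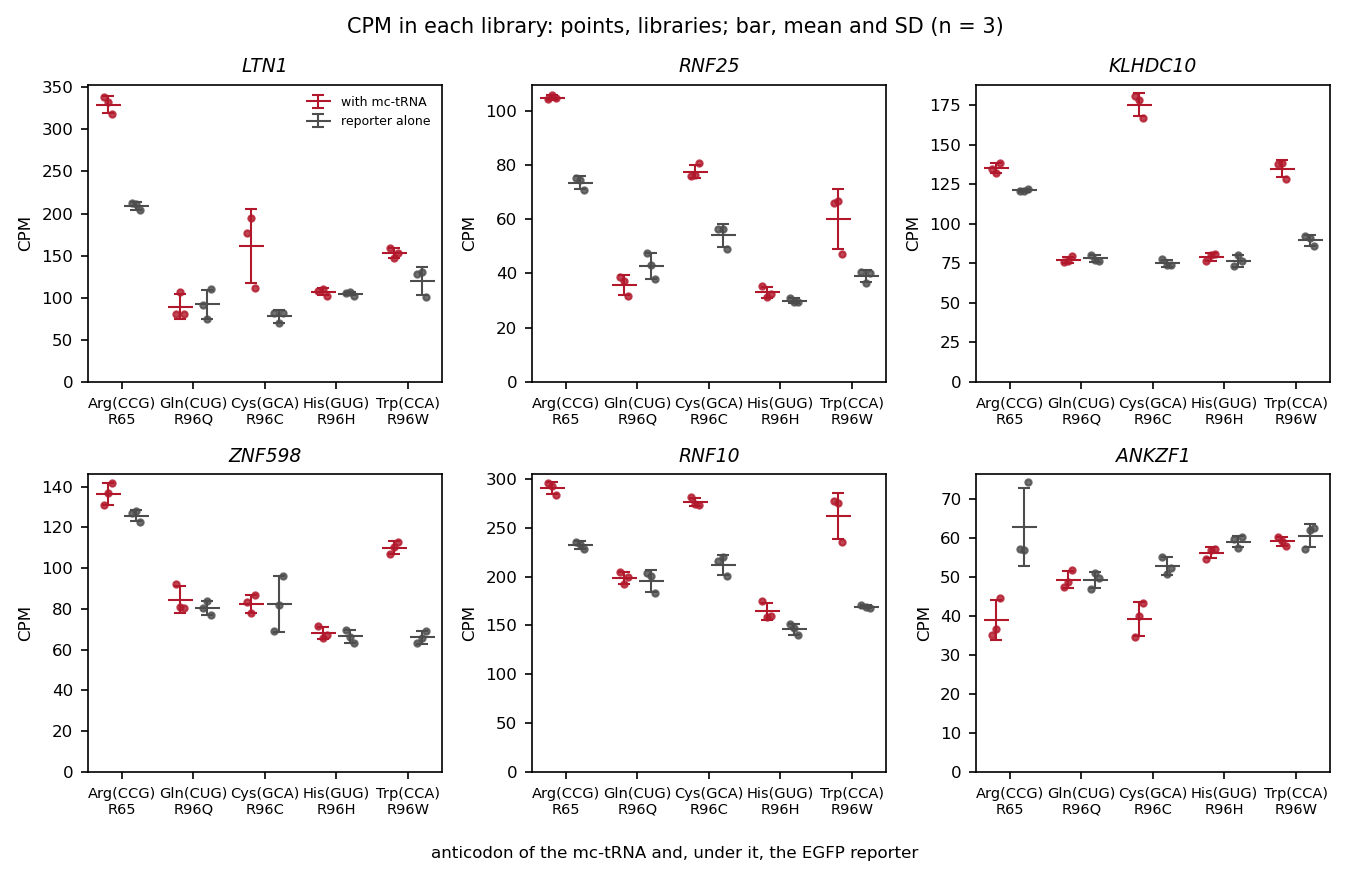
CPM of 6 genes in every library, drawn as for the rescue factors. LTN1 is highest with Ser-tRNA_Arg(CCG), where its 3 libraries have 318 to 338 CPM, and ZNF598 stands apart from its reporter alone with Arg-tRNA_Trp(CCA).

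Among deubiquitinases and their partners, 3 of 5 rose with Arg-tRNA_Cys(GCA), 3 rose with Arg-tRNA_Trp(CCA), and 1 rose and 3 fell with Ser-tRNA_Arg(CCG). OTUD3, which removes ubiquitin placed by ZNF598 on the small subunit, had 103, 107 and 98.2 CPM with Arg-tRNA_Cys(GCA) and 56.2, 58.6 and 61.9 CPM in EGFP(R96C) alone (0.80 ± 0.07, adjusted p = 9.19e-13). With Arg-tRNA_Trp(CCA) it had 110, 109 and 116 CPM and in EGFP(R96W) alone 77.6, 77.1 and 68.9 CPM (0.58 ± 0.07, adjusted p = 7.52e-09). It fell with Ser-tRNA_Arg(CCG), at 78.8, 81.5 and 88.2 CPM against 112.7, 113.2 and 129.9 CPM in EGFP(R65) alone (-0.52 ± 0.07, adjusted p = 3.15e-08). USP21, an enzyme with the same 40S targets, was called in no comparison, with changes of -0.13 to 0.04 with TMM. It was called lower under library totals with Arg-tRNA_Cys(GCA) (-0.50) and Ser-tRNA_Arg(CCG) (-0.17, adjusted p = 0.0291), and with Ser-tRNA_Arg(CCG) also without the second EGFP(R65) library or the third one with the mc-tRNA (adjusted p = 0.0463 and 0.0208).

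USP10, which removes ubiquitin from RPS2 and RPS3, changed little: it fell by 0.19 on the log2 scale with Ser-tRNA_Arg(CCG) (SE 0.05, adjusted p = 0.00213) and rose by 0.14 ± 0.05 with Arg-tRNA_Trp(CCA) (adjusted p = 0.0277). The second of these was lost without any 1 of 5 libraries (adjusted p = 0.0517 to 0.176). G3BP2, a stress granule protein that binds USP10, had 335, 328 and 306 CPM with Ser-tRNA_Arg(CCG) and 258, 264 and 235 CPM in EGFP(R65) alone (0.36 ± 0.06, adjusted p = 9.25e-06). It had 436, 449 and 386 CPM with Arg-tRNA_Cys(GCA) and 280, 275 and 251 CPM in EGFP(R96C) alone (0.66 ± 0.06, adjusted p = 2.67e-11). In cells with Arg-tRNA_Trp(CCA) it had 312, 314 and 281 CPM, against 257, 247 and 224 CPM in EGFP(R96W) alone (0.32 ± 0.06, adjusted p = 9.67e-05). Its paralog G3BP1 also rose with Arg-tRNA_Cys(GCA) (0.68 ± 0.07, adjusted p = 9.51e-11) but fell with Ser-tRNA_Arg(CCG) (-0.25 ± 0.07, adjusted p = 0.0019); with library totals the Cys(GCA) calls of both paralogs were lost.

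All 4 ASC-1 subunits rose with Arg-tRNA_Cys(GCA), by 0.51 to 0.84, 2 rose with Arg-tRNA_Trp(CCA), and 1 rose and 1 fell with Ser-tRNA_Arg(CCG). ASCC3, the helicase, rose by 0.71 ± 0.12 with Arg-tRNA_Cys(GCA) (adjusted p = 1.82e-05) and by 0.44 ± 0.12 with Arg-tRNA_Trp(CCA) (adjusted p = 0.0051). ASCC2, which binds the ubiquitin chains, rose by 0.51 ± 0.08 (adjusted p = 4.28e-07) and 0.49 ± 0.08 (adjusted p = 3.12e-06) with the same mc-tRNAs. TRIP4 rose by 0.84 ± 0.08 with Arg-tRNA_Cys(GCA) (adjusted p = 1.45e-11) and by 0.30 ± 0.08 with Ser-tRNA_Arg(CCG) (adjusted p = 0.00123), and ASCC1 rose with Arg-tRNA_Cys(GCA) (0.65 ± 0.07, adjusted p = 3.47e-10) and fell with Ser-tRNA_Arg(CCG) (-0.22 ± 0.07, adjusted p = 0.00858). With library totals none of ASCC1, ASCC2 and ASCC3 was called in the Cys(GCA) comparison.

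The 7 factors of 60S quality control did not move together: 3 rose and 1 fell with Arg-tRNA_Cys(GCA), 1 rose and 2 fell with Arg-tRNA_Trp(CCA), and 2 rose and 2 fell with Ser-tRNA_Arg(CCG). LTN1 (chr21:28928144-28992956, minus strand), the ligase that tags the unfinished chain, had 338, 332 and 318 CPM with Ser-tRNA_Arg(CCG) and 212, 211 and 204 CPM in EGFP(R65) alone (0.66 ± 0.15, adjusted p = 0.000962). It rose with Arg-tRNA_Cys(GCA) as well, at 177, 195 and 112 CPM against 81.8, 69.5 and 82.2 CPM in EGFP(R96C) alone (1.05 ± 0.16, adjusted p = 4.52e-06). The third library with that mc-tRNA was again the lowest, as for N4BP2 and for ASCC3, which had 185, 193 and 129 CPM. NEMF, which holds the chain for LTN1 and adds alanine tails, fell with Ser-tRNA_Arg(CCG), at 73.8, 75.7 and 72.1 CPM against 120, 114 and 105 CPM in EGFP(R65) alone (-0.61 ± 0.17, adjusted p = 0.00464).

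NEMF was also lower with Arg-tRNA_Trp(CCA), at 52.5, 50.0 and 52.5 CPM against 74.0, 73.7 and 62.8 CPM in EGFP(R96W) alone (-0.44 ± 0.17, adjusted p = 0.0472), a call lost without any 1 of 5 of the 6 libraries (adjusted p = 0.0862 to 0.125). Its exons share 31.93% of their bases with KLHDC2 on the opposite strand, and KLHDC2, which itself reads chain ends, was not called in any comparison. ANKZF1, the hydrolase that frees the chain from its tRNA, had 35.2, 36.6 and 44.7 CPM with Ser-tRNA_Arg(CCG) and 57.2, 57.0 and 74.2 CPM in EGFP(R65) alone (-0.69 ± 0.08, adjusted p = 1.02e-08). It also fell with Arg-tRNA_Cys(GCA), at 34.5, 39.9 and 43.3 CPM against 55.2, 50.7 and 52.2 CPM in EGFP(R96C) alone (-0.42 ± 0.09, adjusted p = 5.15e-05). ANKZF1 and GIGYF1 were the 2 members that fell with both of these mc-tRNAs, beside 13.3% of all genes.

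KLHDC10, a receptor of a ligase that recognises alanine tails, rose with 3 mc-tRNAs. It had 134.7, 132.5 and 138.8 CPM with Ser-tRNA_Arg(CCG) and 121, 121 and 122 CPM in EGFP(R65) alone, a small rise (0.16 ± 0.05, adjusted p = 0.00938) that was lost with no filter on low counts (adjusted p = 0.0745). It had 181, 178 and 167 CPM with Arg-tRNA_Cys(GCA) and 77.5, 73.9 and 73.9 CPM in EGFP(R96C) alone (1.22 ± 0.05, adjusted p = 7.97e-21). With Arg-tRNA_Trp(CCA) it had 137.9, 138.5 and 128.6 CPM, and in EGFP(R96W) alone 92.3, 90.9 and 85.8 CPM (0.59 ± 0.05, adjusted p = 2.32e-11). RCHY1, another ligase for such tails, rose with Arg-tRNA_Cys(GCA) (1.15 ± 0.06, adjusted p = 1.31e-17) and was not called with Arg-tRNA_Trp(CCA) (0.07 ± 0.06, adjusted p = 0.408), and the 2 effects differed by -1.08 ± 0.09, Trp(CCA) minus Cys(GCA) (adjusted p = 4.03e-12).

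ELAC1 had 1.89, 1.69 and 1.44 CPM with Arg-tRNA_Trp(CCA) and 2.30, 2.78 and 2.77 CPM in EGFP(R96W) alone, a fall of -0.65 ± 0.18 at a low level (adjusted p = 0.00393). Part of its exons, 8.51% of the bases, lies in another annotated gene on the same strand. TCF25, the human relative of a yeast subunit of the quality control complex, was called in no comparison, with changes of -0.15 to 0.11 with TMM. Its Cys(GCA) change of -0.13 was near the threshold (adjusted p = 0.078) and was called lower by DESeq2 (adjusted p = 0.0471), with RLE factors (adjusted p = 0.0474), with no filter, with the replicate block, without the EGFP(R65) libraries and with library totals (-0.68). With Ser-tRNA_Arg(CCG) it was called higher when only the 6 compared libraries were fitted (adjusted p = 0.0145).

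Whether an effect differs between mc-tRNAs was tested directly. For 31 of the 34 genes the 5 effects differed (F-test in the same fit), beside 72.5% of all genes tested, and USP21, NEMF and ELAC1 were the exceptions. Of the 10 pairs of mc-tRNAs, Cys(GCA) against Arg(CCG) gave 23 members with different effects, 20 of them higher with Arg-tRNA_Cys(GCA), beside 56.5% of all genes. Trp(CCA) against Arg(CCG) gave 22 members, 19 of them higher with Arg-tRNA_Trp(CCA), beside 45.3%, and Trp(CCA) against Cys(GCA) gave 22, 16 of them lower with Arg-tRNA_Trp(CCA), beside 43.7%. Arg-tRNA_His(GUG) against Arg-tRNA_Gln(CUG) gave 0 members by edgeR beside 0.811% of all genes. At an unadjusted p under 0.05 there were 5 members, and the share of all genes at that cut was not counted. Against Arg-tRNA_Gln(CUG), the effect of Arg-tRNA_Cys(GCA) differed for 24 members (50.2% of all genes) and that of Arg-tRNA_Trp(CCA) for 16 (25.3%). Against Ser-tRNA_Arg(CCG), that of Arg-tRNA_Gln(CUG) differed for 18 (44.6%) and that of Arg-tRNA_His(GUG) for 19 (41.7%). Arg-tRNA_His(GUG) against Arg-tRNA_Cys(GCA) gave 24 (48.2%), and Arg-tRNA_Trp(CCA) against Arg-tRNA_His(GUG) gave 15 (22.8%).

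Read across comparisons with TMM, 5 genes (RNF10, RNF25, G3BP2, GIGYF2 and KLHDC10) rose with all of Ser-tRNA_Arg(CCG), Arg-tRNA_Cys(GCA) and Arg-tRNA_Trp(CCA), beside 6.39% of all genes tested, and none fell with all 3, beside 7.02%. With library totals RNF10 and GIGYF2 were called lower with Arg-tRNA_Cys(GCA) (-0.16 and -0.28), and the Cys(GCA) calls of RNF25 and G3BP2 were lost. There were 12 genes called in opposite directions by 2 mc-tRNAs, a pattern that 20.1% of all genes had. Of these, 9 rose with Arg-tRNA_Cys(GCA) and fell with Ser-tRNA_Arg(CCG), beside 8.51% of all genes: RNF14, CNOT4, OTUD3, G3BP1, ASCC1, EDF1, PELO, HBS1L and GTPBP2. GCN1 had the reverse order, as did 5.88% of all genes. Under library totals RNF14 was called lower with Arg-tRNA_Cys(GCA) (-0.20), and the Cys(GCA) calls of G3BP1 and ASCC1 were lost. The fall of EDF1 with Ser-tRNA_Arg(CCG) and that of GCN1 with Arg-tRNA_Cys(GCA) were each lost when certain single libraries were left out. For EDF1 the call was also lost with RLE factors (adjusted p = 0.0543) and with DESeq2 (adjusted p = 0.0729). USP10 and GIGYF1, called in opposite directions by other pairs, had changes no larger than 0.20 in size.

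**Figure D5:**
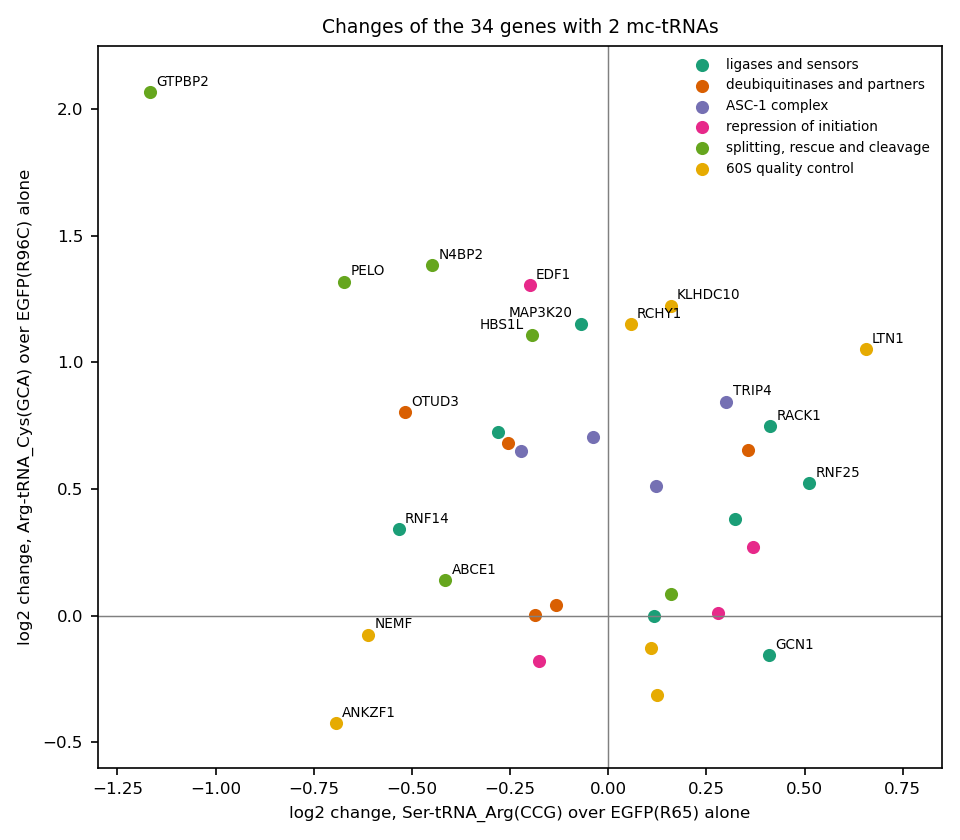
Log2 change of each of the 34 genes with Arg-tRNA_Cys(GCA) (vertical axis) and with Ser-tRNA_Arg(CCG) (horizontal axis), each over its own reporter alone and coloured by role. GTPBP2 lies at the upper left with 2.07 and -1.17, and the upper left quadrant also holds the other 8 genes that rose with the first and fell with the second, PELO, EDF1, OTUD3 and HBS1L among them, beside genes not called in both comparisons.

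The levels before any mc-tRNA also varied. Among the 4 EGFP(R96) reporters alone, 26 of the 34 genes differed (F-test, same fit), beside 54.7% of all genes tested. RNF10 had the smallest p-value, with means of 212 ± 9.96 CPM in EGFP(R96C), 169 ± 1.62 CPM in EGFP(R96W), 146.1 ± 5.85 CPM in EGFP(R96H) and 196 ± 11.1 CPM in EGFP(R96Q) alone (SD, n = 3 each; adjusted p = 1.87e-08). The 8 genes not called were RNF14, GCN1, USP21, G3BP1, ASCC1, ASCC3, GIGYF2 and TCF25. The groups with a reporter alone were therefore not interchangeable for most of these genes, and each mc-tRNA was compared with its own.

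Neighbouring parts of the pathway were read from lists, with TMM as for the members. Over all genes tested, 30.2% rose and 30.5% fell with Arg-tRNA_Cys(GCA), and 20.7% and 21.7% with Arg-tRNA_Trp(CCA). For Ser-tRNA_Arg(CCG) the shares were 26.6% and 30.7%. Under library totals, 20.2% of all calls were upward in the Cys(GCA) comparison and 31.4% in the Trp(CCA) comparison. Of 6 genes for 40S proteins ubiquitinated at collisions and for 40S turnover (RPS2, RPS3, RPS10, RPS20, RIOK3 and USP16), 6 rose with Arg-tRNA_Cys(GCA), 3 with Arg-tRNA_Trp(CCA) and 3 (RPS2, RPS3 and RIOK3) with Ser-tRNA_Arg(CCG). With library totals 3 of the 6 were called higher with Arg-tRNA_Cys(GCA) and none lower, and RPS3 and RPS20 turned sign. RIOK3, a kinase that removes ubiquitinated 40S subunits, rose by 1.13 ± 0.07 with Arg-tRNA_Cys(GCA). RPS10 is uncertain: its row averaged 8.02 ± 0.85 CPM with Arg-tRNA_Trp(CCA) and 3.32 ± 0.43 CPM in EGFP(R96W) alone (SD, n = 3 each), far under the other 40S protein genes of the list, and 39.4% of its exon bases lie in RPS10-NUDT3 on the same strand. Of 10 genes of the UFM1 system, which modifies the 60S subunit at the ER, 6 rose and 3 fell with Arg-tRNA_Cys(GCA), 3 rose and 2 fell with Arg-tRNA_Trp(CCA), and 2 rose and 5 fell with Ser-tRNA_Arg(CCG). Library totals gave 2 higher and 4 lower in the Cys(GCA) comparison and 2 higher and 5 lower in the Trp(CCA) comparison. The widest changes with Arg-tRNA_Cys(GCA) were 1.85 ± 0.08 for UFM1, the modifier itself, and -2.29 ± 0.33 for UFSP1, a protease that matures it. UFSP1 was at a low level, with means of 0.29 ± 0.11 CPM with the mc-tRNA and 1.41 ± 0.08 CPM in EGFP(R96C) alone. UFM1 had means of 246 ± 31.3 and 68.3 ± 2.86 CPM (SD, n = 3 each).

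For the extraction of 60S-bound chains and their degradation, 5 of 12 genes rose and 3 fell with Arg-tRNA_Cys(GCA), 5 rose with Arg-tRNA_Trp(CCA), and 1 rose and 6 fell with Ser-tRNA_Arg(CCG). The shares of all genes given with the first of these lists stand beside the counts of this paragraph too. They were, up and down, 30.2% and 30.5% with Arg-tRNA_Cys(GCA), 20.7% and 21.7% with Arg-tRNA_Trp(CCA), and 26.6% and 30.7% with Ser-tRNA_Arg(CCG). With library totals the Cys(GCA) split was 1 higher and 10 lower and the Trp(CCA) split 3 higher and 2 lower. UFD1, a cofactor of the VCP segregase, rose with all 5 mc-tRNAs, as did 0.00896% of all genes, by 1.20 ± 0.06 with Arg-tRNA_Cys(GCA), 1.12 ± 0.06 with Arg-tRNA_Trp(CCA), 0.45 ± 0.06 with Ser-tRNA_Arg(CCG), 0.26 ± 0.06 with Arg-tRNA_His(GUG) and 0.36 ± 0.06 with Arg-tRNA_Gln(CUG). TRNT1, which adds the CCA end to tRNAs, fell with Ser-tRNA_Arg(CCG) (-1.14 ± 0.09). Of 26 genes for decay or repression of the stalled mRNA, 14 rose and 7 fell with Arg-tRNA_Cys(GCA), 11 rose and 3 fell with Arg-tRNA_Trp(CCA), and 4 rose and 15 fell with Ser-tRNA_Arg(CCG). The falls with Ser-tRNA_Arg(CCG) were led by the exosome subunits EXOSC3 (-0.74 ± 0.07) and EXOSC10 (-0.72 ± 0.05), and the rises with Arg-tRNA_Cys(GCA) by the exosome nuclease DIS3 (1.03 ± 0.10) and the exonuclease XRN1 (0.89 ± 0.15). Library totals turned these splits to 4 higher and 15 lower with Arg-tRNA_Cys(GCA), where the call of XRN1 was lost (adjusted p = 0.0533), and to 7 higher and 9 lower with Arg-tRNA_Trp(CCA).

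The same shares of all genes stand beside the counts of the remaining lists. They were, up and down, 30.2% and 30.5% with Arg-tRNA_Cys(GCA), 20.7% and 21.7% with Arg-tRNA_Trp(CCA), and 26.6% and 30.7% with Ser-tRNA_Arg(CCG). For Arg-tRNA_Gln(CUG) they were 0.273% and 0.278%, and for Arg-tRNA_His(GUG) 1.56% and 0.95%. Of 14 genes of ribotoxic stress and GCN2 signalling, 7 rose and 6 fell with Arg-tRNA_Cys(GCA), 6 rose and 3 fell with Arg-tRNA_Trp(CCA), and 4 rose and 7 fell with Ser-tRNA_Arg(CCG). Library totals gave 2 higher and 8 lower in the Cys(GCA) comparison and 5 higher and 4 lower in the Trp(CCA) comparison. MAP2K6, a kinase upstream of p38, fell with all 3, with changes of -0.50 ± 0.11, -1.01 ± 0.11 and -1.21 ± 0.16 in that order. The last was at a low level, with means of 1.18 ± 0.31 CPM with Ser-tRNA_Arg(CCG) and 2.72 ± 0.60 CPM in EGFP(R65) alone (SD, n = 3 each). The largest rises with Arg-tRNA_Cys(GCA) were those of RWDD1 (0.76 ± 0.07) and ZC3H15 (0.74 ± 0.07), which bind the GTPases DRG2 and DRG1. The 7 genes of ATF4 and its targets, downstream of eIF2α phosphorylation, all rose with Arg-tRNA_Cys(GCA), with a median of 3.59 led by CHAC1 (4.04 ± 0.24) and TRIB3 (3.83 ± 0.23), and all 7 were also called higher with library totals. Of the same 7, 5 rose with Arg-tRNA_Trp(CCA), with a median of 1.02, 2 rose and 4 fell with Ser-tRNA_Arg(CCG), with a median of -0.43, and 2 fell with Arg-tRNA_His(GUG). Of 5 mitochondrial rescue genes, 1 rose and 1 fell with Arg-tRNA_Cys(GCA), 2 rose and 1 fell with Arg-tRNA_Trp(CCA), and 1 rose and 1 fell with Ser-tRNA_Arg(CCG), while library totals gave 1 higher and 4 lower with Arg-tRNA_Cys(GCA). In the Gln(CUG) comparison 2 genes of these lists rose, both for 60S extraction, and in the His(GUG) comparison 2 rose beside the 2 that fell.

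The coding sequences of the 34 genes were also read for the codons that pair with each mc-tRNA's anticodon, from 1 GENCODE 29 transcript per gene. The median share of such codons was 0.842% for CGG, 3.62% for CAG, 1.7% for UGC and UGU, 2.5% for CAC and CAU, and 0.809% for UGG, beside 0.962%, 3.19%, 2.05%, 2.44% and 1.15% over 19508 coding genes. RCHY1, a zinc-binding ring finger protein, had the highest share of cysteine codons of the members, 11.1%, and rose with Arg-tRNA_Cys(GCA), while EDF1, which also rose, had none. RACK1, a propeller of WD repeats, had the highest share of UGG, 4.1%, and was not called with Arg-tRNA_Trp(CCA) (0.12 ± 0.08, adjusted p = 0.266). These genes were picked for their extreme shares, and a relation of codon share to change was not tested.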

How the data were processed

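Poly(A)-selected, strand-specific TruSeq libraries from 1 µg of total RNA were made from mCherry-sorted HEK293 cells 48 h after transfection and sequenced on a NovaSeq6000, per the labels. The authors deposited raw read counts per gene, 1 table per library; per the submitters' processing notes STAR, SAMtools and featureCounts were used with build hg38. Tool versions and annotation were not given in the sources used here, and the file headers name a strand option with no value, so overlaps between genes are stated. Of 58278 gene IDs, 55109 have the same version in GENCODE 29, and 33 of the 34 members do (GIGYF1 does not); positions, exon lengths and codons come from that annotation.

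The 92 spike-in rows were left out. Counts were fitted in R 4.3.3 with edgeR 4.0.16 (TMM factors of 0.714 to 1.12, filterByExpr, robust quasi-likelihood) as 10 group means over all 30 libraries, with 20 residual degrees of freedom and a biological coefficient of variation of 8.24%. The SE of a log2 change is its size divided by the square root of the F statistic, and p-values were adjusted by Benjamini-Hochberg over 22321 genes. There were 17 tests across all genes: 5 comparisons, 10 differences between effects, and 2 F-tests. Replicates differed beyond counting error (chi-square per degree of freedom of 2.08 to 36.7), so none was counted as a repeat. On counts simulated for the Cys(GCA) comparison over 22321 genes, 22.4% of genes changed 1.25-fold, 58.3% changed 1.5-fold, 75.5% changed 2-fold and 95.8% changed 4-fold were called, and 6 of 22121 unchanged ones. The simulation gave every gene the same spread, and equal means in all groups apart from a small set of changed genes. Its rates need not hold for the real data, where 60.7% of genes were called in this comparison. Alternatives were RLE factors, library totals, no filter, DESeq2 1.42.0, the fit without EGFP(R65), the 6 compared libraries alone, a replicate block and leaving out each library. Same-numbered replicates were checked for shared deviations. In no comparison did all 3 same-numbered pairs clearly share them, which does not exclude weaker shared structure.

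The members, the role groups and the other lists were chosen with earlier results of these data known. Library values are given for the 3 largest called rises and falls of each comparison, for members called in 1 direction with all of Ser-tRNA_Arg(CCG), Arg-tRNA_Cys(GCA) and Arg-tRNA_Trp(CCA), and for the 5 members with the widest spread among those called in opposite directions; other lists have at most the 2 largest called changes per comparison named. MAP3K20 means, the ASCC3 values, the Cys(GCA) change of MAP2K6, RPS3 and RPS20 under library totals, and the other members given beyond this rule were chosen after their values were seen.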

Additional observations from a re-analysis of the deposited data

Results flagged for a closer look

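Effects of different mc-tRNAs on the same gene differed, by the test of the difference in the edgeR fit, for 12 members called in opposite directions. These members were picked by calls of the same fit, so such a difference was all but set beforehand and is no further evidence. In differences against Ser-tRNA_Arg(CCG), the mc-tRNA, the reporter and the difference between library sets cannot be told apart. The Arg-tRNA_Cys(GCA) effect minus the Ser-tRNA_Arg(CCG) effect was 0.88 ± 0.09 for RNF14 (adjusted p = 1.25e-10), 1.01 ± 0.09 for CNOT4 (adjusted p = 1.02e-11), -0.57 ± 0.09 for GCN1 (adjusted p = 1.72e-06), 1.32 ± 0.10 for OTUD3 (adjusted p = 2.88e-14) and 0.94 ± 0.10 for G3BP1 (adjusted p = 2.94e-10). The same difference was 0.87 ± 0.10 for ASCC1 (adjusted p = 2.63e-09), 1.51 ± 0.11 for EDF1 (adjusted p = 1.32e-14), 1.99 ± 0.10 for PELO (adjusted p = 5.34e-18), 1.30 ± 0.08 for HBS1L (adjusted p = 6.86e-17) and 3.23 ± 0.10 for GTPBP2 (adjusted p = 1.24e-24). For USP10 the Arg-tRNA_Trp(CCA) effect minus the Ser-tRNA_Arg(CCG) effect was 0.32 ± 0.07 (adjusted p = 0.000352). For GIGYF1 the Arg-tRNA_Trp(CCA) effect minus the Arg-tRNA_Cys(GCA) effect was 0.37 ± 0.10 (adjusted p = 0.00242). Over all 5 effects 31 members differed.

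Spike-in (ERCC) sequences, which enter no comparison here, had up to 106 counts in an EGFP(R96) library and 0 counts in every EGFP(R65) library.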

How the results depend on the processing

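Of 41 named changes, 520 values were computed under other settings: 487 kept direction and call, 30 lost the call and 3 turned sign. The 3 turned with library totals in the Cys(GCA) comparison: RNF10 to -0.16, RNF25 to -0.021 and GIGYF2 to -0.28, where the median of all genes moved by -0.55. In all, 10 changes lost their call or turned sign under some setting. Of those that turned, RNF10 and GIGYF2 were called lower in the edgeR fit with library totals (adjusted p = 0.00693 and 5.12e-06). NEMF with Arg-tRNA_Trp(CCA) also lost it with RLE factors (adjusted p = 0.0504), and EIF4E2 with Arg-tRNA_His(GUG) with library totals (adjusted p = 0.053); the cause was not tested. With Arg-tRNA_Gln(CUG), library totals, the replicate block and DESeq2 each called 1 member, CNOT4 (adjusted p = 0.0399, 0.0306 and 0.0292), against 0, and leaving out a library gave 0 to 1. With Arg-tRNA_His(GUG), library totals, no filter and the fit without EGFP(R65) called 0 members, the replicate block 2 (EIF4E2 and RNF10) and the 6 compared libraries alone 5, against 1, and leaving out a library gave 0 to 1. The cause was not tested.

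Leaving out a library gave 22 to 26 members called with Ser-tRNA_Arg(CCG), 24 to 26 with Arg-tRNA_Cys(GCA) and 17 to 21 with Arg-tRNA_Trp(CCA), and the other settings gave 23 to 29, 23 to 28 and 20 to 22. Members with differing effects numbered 27 to 33 over all settings, those that differed among the EGFP(R96) reporters alone 22 to 27, and calls summed over the 10 pairs of effects 171 to 191, against 183; the pairs were not computed without EGFP(R65). The replicate block was run although pairing by number was not clear in any comparison. Deviations of same-numbered libraries correlated at -0.0772 to 0.14. In the Arg(CCG), Gln(CUG), Cys(GCA), His(GUG) and Trp(CCA) comparisons 2, 2, 0, 2 and 3 of 3 libraries were closest to their own number. The third replicates correlated with each other at 0.125, 0.14, -0.0261, 0.0719 and 0.131 in that order, so weak shared structure is not excluded. ELAC1, the member with the fewest counts, had group means of 1.41 to 4.02 CPM, where counting error weighs most.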
